A study of Mus musculus with 6 samples.

Results

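Transcripts of the mouse mitochondrial genome were measured in colon RNA, and all genes that the deposited expression table places on chromosome MT were taken as members. They numbered 37 of the 54532 genes in the table: 13 protein-coding genes, 2 rRNA genes and 22 tRNA genes. Reads were listed for 33 of them, and 32 had a mean FPKM (fragments per length of gene, with libraries scaled by the authors by factors that did not follow their read totals) of at least 1 over the libraries and entered the test. The colons came from C57BL/6 mice at post-natal day 56, with 3 libraries labelled Il10 knockout (genotype IL10-/-) and 3 labelled WT (wild type). No treatment is named for either genotype, the allele is not described in the sources used here, and nothing there says that each library came from a separate mouse, so p-values measure the spread between libraries, which may in part be technical. Interleukin 10 dampens inflammation, and its loss in mice is a common laboratory route to colitis. Libraries were built with an NEBNext Ultra RNA kit from total RNA and run on an Illumina sequencer. Whether polyadenylated RNA was selected or nuclear rRNA removed, and whether the libraries kept the strand, is not given in the sources used here.

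The mitochondrial genome is a small circle transcribed from both strands into long precursors by a dedicated RNA polymerase, POLRMT, with the factors TFAM and TFB2M. Enzymes cut the precursors at the tRNAs that lie between most of the mRNAs and rRNAs, and each product then has its own stability. The encoded proteins are core subunits of respiratory complexes I, III and IV and of ATP synthase (complex V), while the other subunits come from nuclear genes, so colon cells rich in mitochondria, such as epithelium and muscle, carry both sets.

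Il10 itself, the targeted gene, was higher in the libraries labelled knockout than in the WT libraries. Its level was 13.8, 10.6 and 14.5 FPKM in the libraries labelled knockout and 0.757, 0.173 and 0.177 FPKM in the WT libraries. Whether the undescribed allele leaves transcript, or the labels are swapped, was not tested. The groups are therefore named by their labels throughout, and no direction below is tied to loss of interleukin 10. Whole reads recovered from the FPKM values amounted to 13107941 to 15797928 per library. WT library 3 stood apart in its mitochondrial reads and in its markers of smooth muscle and of enteric neurons and glia. The results that rest on this library are given without it as well.

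Mitochondrial genes took a large and uneven share of the reads. The share was 22.0%, 8.61% and 15.5% in libraries 1 to 3 labelled knockout and 20.3%, 11.7% and 43.4% in WT libraries 1 to 3. Exact 95% binomial intervals were at most 0.0262 percentage points to either side, which covers counting error only. WT library 3 was far above the other 5, knockout library 2 was lowest, and the groups overlapped. The mean was 15.4% ± 6.68 in the knockout libraries and 25.2% ± 16.4 in the WT libraries (SD, n = 3 each), with p = 0.5 in a two-sided exact permutation test. The difference of -9.81 percentage points was -0.68 points without WT library 3. With 3 libraries against 3 this test cannot go below 0.1.

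The order of the libraries by mitochondrial share was not that of the nuclear subunits of the same complexes. The 76 measured nuclear genes for respiratory chain and ATP synthase subunits had a mean log2(FPKM + 1) of 7.04, 6.63 and 6.63 in the knockout libraries and of 6.35, 7.07 and 5.90 in the WT libraries. WT library 3, highest for mitochondrial reads, was lowest for this list. The 10 smooth muscle marker genes had a list mean of 5.63, 3.46 and 5.53 on the same scale in the knockout libraries and 6.11, 6.05 and 8.53 in the WT libraries, so the highest and the lowest library were the same as for the mitochondrial share. Their summed level was 210 to 1274 FPKM in the knockout libraries and 1623 to 10877 FPKM in the WT libraries. None of the 10 was at 0 in every library. The libraries in between did not keep the order of the mitochondrial share. WT library 2 was above knockout libraries 1 and 3 for the smooth muscle markers and below both for the share. Genes of enteric neurons and glia also had their highest list mean in WT library 3 and their lowest in knockout library 2. The match at the extremes was therefore not particular to smooth muscle. The 10 epithelial marker genes had list means of 9.67, 9.29 and 8.84 in the knockout libraries and 8.14, 10.25 and 7.45 in the WT libraries, with WT library 3 lowest. In bulk colon RNA, fewer cells of a type and less RNA per cell cannot be told apart, and the part of tissue composition in the mitochondrial share was not tested.

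**Figure D1:**
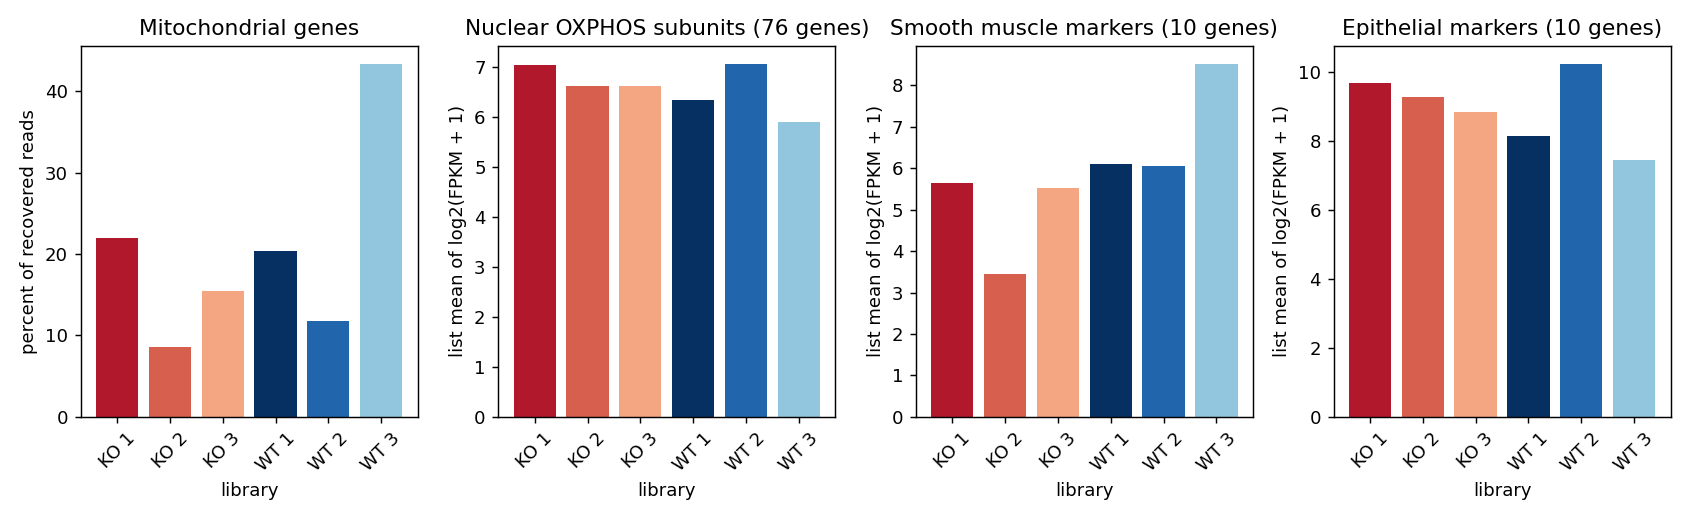
Bars give, for each library (knockout libraries left, WT right), the percent of recovered reads on mitochondrial genes and the mean log2(FPKM + 1) of nuclear OXPHOS (respiratory chain and ATP synthase) subunits, smooth muscle markers and epithelial markers. WT library 3 is highest for mitochondrial reads (43.4%) and smooth muscle markers (8.53) and lowest for nuclear subunits (5.90). Genes of enteric neurons and glia are not plotted and were also highest in WT library 3.

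The 13 mRNAs held 95.5% to 98.3% of the mitochondrial reads of a library. mt-Co1, the catalytic core subunit of complex IV (MT:5328-6872, plus strand, GRCm38), was the highest in every library. Its level was 82857, 26850 and 42983 FPKM in the knockout libraries and 56141, 60531 and 166052 FPKM in the WT libraries. The groups overlapped, and WT library 3 was the highest by a wide margin. Across the 15 mRNAs and rRNAs the order of levels was much the same in all libraries: Spearman's rho between pairs of libraries was 0.918 to 0.993, as a description across genes of libraries that share annotation and scaling.

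Complex I has 7 mitochondrial subunits, which form part of its proton-pumping membrane arm. mt-Nd1 (MT:2751-3707) had 26337, 8792 and 16662 FPKM in the knockout libraries and 13378, 9817 and 37244 FPKM in the WT libraries. mt-Nd4 (MT:10167-11544) had 10295, 3330 and 6304 FPKM in the knockout libraries and 7665, 4296 and 20494 FPKM in the WT libraries. mt-Nd2 (MT:3914-4951) had 10525, 3082 and 5108 FPKM in the knockout libraries and 8137, 3273 and 20241 FPKM in the WT libraries. In each of these the highest library was WT 3 and the lowest knockout 2, with the other 4 in between. mt-Nd5 (MT:11742-13565) had the same highest and lowest library, with 8076, 2897 and 4143 FPKM in the knockout libraries and 4975, 3034 and 11957 FPKM in the WT libraries. mt-Nd6 (MT:13552-14070), the only protein-coding gene on the minus strand, had 8987, 2956 and 6995 FPKM in the knockout libraries and 5441, 3577 and 11214 FPKM in the WT libraries. Its last bases overlap mt-Nd5 over 14 positions on the opposite strand, so reads there cannot be assigned where strand was not kept. In that case reads over the rest of mt-Nd6 may also come from plus-strand RNA. The small subunits mt-Nd3 and mt-Nd4l were far lower. mt-Nd3 (MT:9459-9806) had 792, 110 and 275 FPKM in the knockout libraries and 154, 103 and 418 FPKM in the WT libraries, highest in knockout library 1. mt-Nd4l (MT:9877-10173) had 274, 100 and 72.3 FPKM in the knockout libraries and 143, 62.0 and 626 FPKM in the WT libraries. Groups overlapped for all 7.

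mt-Cytb, cytochrome b, is the mitochondrial subunit of complex III (MT:14145-15288). With 33812, 11377 and 19741 FPKM in the knockout libraries and 22343, 12401 and 62983 FPKM in the WT libraries it came after mt-Co1 in every library, and the groups overlapped. In complex IV, mt-Co2 carries the copper site that accepts electrons from cytochrome c, and mt-Co3 is the remaining core subunit. mt-Co2 (MT:7013-7696) had 1785, 354 and 1623 FPKM in the knockout libraries and 947, 936 and 3065 FPKM in the WT libraries. mt-Co3 (MT:8607-9390) had 1776, 801 and 935 FPKM in the knockout libraries and 629, 576 and 928 FPKM in the WT libraries. For mt-Co3, knockout library 2 lay within the WT range and the other knockout libraries above it, while for mt-Co2 knockout library 2 alone lay below the WT range. The ATP synthase subunits mt-Atp6 and mt-Atp8 belong to its membrane sector. mt-Atp6 (MT:7927-8607) had 1422, 270 and 1168 FPKM in the knockout libraries and 684, 613 and 1499 FPKM in the WT libraries. mt-Atp8 (MT:7766-7969) was the lowest mRNA, with 15.5, 3.43 and 8.42 FPKM in the knockout libraries and 2.13, 2.60 and 17.8 FPKM in the WT libraries. The groups overlapped in both. Of the 13 mRNAs, 11 were highest in WT library 3 and the other 2, mt-Co3 and mt-Nd3, in knockout library 1.

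mt-Atp8 and mt-Atp6 share 43 bases (MT:7927-7969), the longest of 9 overlaps between neighbouring members. The last 100 bases of mt-Atp8 are shown, plus strand from the GENCODE M21 transcript on GRCm38, with the stretch that is also the start of mt-Atp6 in capitals.
mt-Atp8 end: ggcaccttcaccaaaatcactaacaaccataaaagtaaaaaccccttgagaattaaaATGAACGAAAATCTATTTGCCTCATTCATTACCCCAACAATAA
A read within the capitals belongs to either gene, and how the authors counted such reads is not given in the sources used here.

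The low mRNAs lie together, in a stretch of the genome that has a nearly identical nuclear copy. On chromosome 1 (24611535 to 24616197 as the authors list it, minus strand), 7 annotated pseudogenes hold sequence of mt-Co1, mt-Co2, mt-Atp6, mt-Co3, mt-Nd3, mt-Nd4l and mt-Nd4. The copied sequence runs from MT position 6390 to 11042. Over 4137 aligned bases the transcripts differed at 1, written A1066T with the mitochondrial base given before the position in the mt-Co1 transcript (counted from 1 at its 5′ end) and the nuclear base after it. Nuclear copies of mitochondrial DNA are known in many genomes, and this one is shown because it decides which members can be told apart from nuclear reads. The first 90 aligned bases of mt-Co1 (MT:6390-6479, plus strand) and of its copy Gm29216 (chr1:24616099-24616188, minus strand) carry the 1 differing base in capitals.
mt-Co1 window: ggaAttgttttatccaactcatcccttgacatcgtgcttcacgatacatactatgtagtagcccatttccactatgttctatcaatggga
Gm29216 window: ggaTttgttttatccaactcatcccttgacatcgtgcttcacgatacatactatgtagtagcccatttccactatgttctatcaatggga
The first 90 bases of mt-Co3 (MT:8607-8696, plus strand) and of Gm28437 (chr1:24613882-24613971, minus strand) have no difference, hence no capitals.
mt-Co3 window: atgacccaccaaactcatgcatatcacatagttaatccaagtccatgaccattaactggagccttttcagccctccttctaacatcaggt
Gm28437 window: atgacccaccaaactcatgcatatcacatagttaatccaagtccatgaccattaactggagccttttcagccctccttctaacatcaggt

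Between 98.0% and 100% of the 50-base words of mt-Co2, mt-Atp6, mt-Co3, mt-Nd3 and mt-Nd4l also occurred in another annotated transcript, against 62.2% for mt-Nd4, 51.1% for mt-Co1, 8.19% for mt-Nd2, 7.61% for mt-Nd5 and 0% for mt-Nd1, mt-Nd6 and mt-Cytb. The 5 mRNAs with nearly all words shared had 62.0 to 3065 FPKM, and the 7 others apart from mt-Atp8 had 2897 to 166052 FPKM. In 6 of 6 libraries the highest of the 5 was below the lowest of the 7. mt-Atp8 has no 50-base word in another annotated transcript, but it lies in the same copied stretch. Its last 43 bases are inside the part that Gm10925 covers, and the rest lies between that part and the part of Gm28661. Of the 5 tRNAs within the stretch, 2 had no read in any library and none went above 114 FPKM. Of the 17 tRNAs outside it, 2 had no read either and 9 never went above that level, while the highest, mt-Tp, reached 8503 FPKM. The sources used here give neither the read length nor the treatment of reads with several matches, and their part in these levels was not tested.

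Reads were split between these genes and their copies in proportions that changed from library to library. For mt-Co3, the copy Gm28437 held 32.4%, 16.7% and 28.8% of the pair's reads in the knockout libraries and 38.5%, 41.7% and 83.7% in the WT libraries. In WT library 3 the copy was listed at 4776 FPKM, against 160 to 852 FPKM in the other 5 libraries. The copy's share was 45.6% to 61.9% for mt-Atp6, 34.4% to 46.5% for mt-Co2, 25.5% to 47.2% for mt-Nd4l and 16.8% to 32.7% for mt-Nd3. For mt-Co1 and mt-Nd4, which extend beyond the copied stretch, it was 0.305% to 0.689% and 0.588% to 1.04%. Since identical sequence cannot assign a read, the levels of mt-Co2, mt-Atp6, mt-Co3, mt-Nd3 and mt-Nd4l are uncertain. All 7 copies together held 0.0901% to 0.657% of a library's reads, which is small beside the mitochondrial share.

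**Figure D2:**
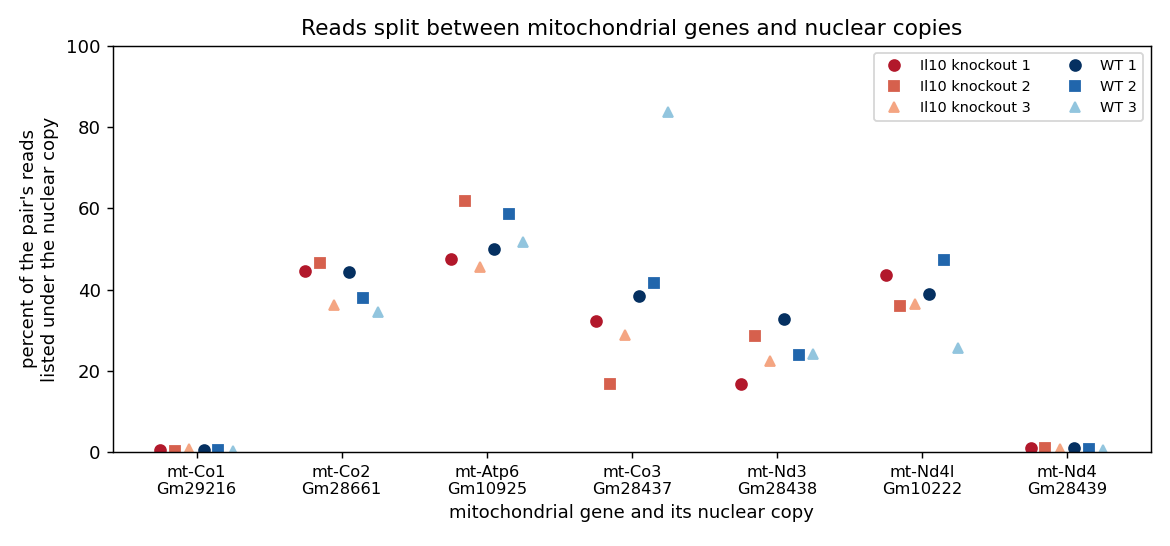
Each point is a library (knockout in reds, left in each group, WT in blues, right) and gives the percent of reads of a mitochondrial gene and its nuclear copy together that were listed under the copy. The mt-Co3 copy holds 83.7% in WT library 3 and 16.7% to 41.7% in the other 5.

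The rRNA genes encode the small and large RNAs of the mitochondrial ribosome. mt-Rnr1 (MT:70-1024) had 2969, 547 and 821 FPKM in the knockout libraries and 2850, 2342 and 6189 FPKM in the WT libraries. mt-Rnr2 (MT:1094-2675) had 2889, 529 and 758 FPKM in the knockout libraries and 2878, 1665 and 6232 FPKM in the WT libraries. In both, knockout library 1 lay within the WT range and knockout libraries 2 and 3 lay below it.

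Reads on tRNA genes were few, 0.0835% to 0.262% of the mitochondrial reads. A read on a tRNA gene may come from the mature tRNA or from a longer precursor, and the values do not tell these apart. Where strand was not kept, it may also come from RNA of the opposite strand. mt-Tf, mt-Tv, mt-Td and mt-Tk, for phenylalanine, valine, aspartate and lysine, had 0 reads in all 6 libraries, where a count of 0 allows up to 3 reads per library. mt-Ts1 had 0 to 3 reads and a mean FPKM below 1. The 4 tRNA genes with the highest mean FPKM were mt-Tp, mt-Tc, mt-Tn and mt-Tl1. mt-Tp, for proline, had 4727, 2249 and 3822 FPKM in the knockout libraries and 1409, 2121 and 8503 FPKM in the WT libraries. mt-Tc, for cysteine, had 507, 294 and 591 FPKM in the knockout libraries and 209, 482 and 1043 FPKM in the WT libraries. mt-Tl1, for leucine, had 161, 74.6 and 58.9 FPKM in the knockout libraries and 47.9, 78.8 and 210 FPKM in the WT libraries. The groups overlapped in all of these. Of the 18 tRNA genes with any read, 13 were highest in WT library 3.

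Of the tRNA genes whose values are taken up below, mt-Te (glutamate), mt-Ty (tyrosine) and mt-Tn (asparagine) differed most from the mitochondrial mRNAs between the groups, and mt-Tp and mt-Tc had the most reads. All 5 lie on the minus strand. Their sequences are given 5′ to 3′ in the sense of the tRNA from GENCODE M21 on GRCm38 (MT:14071-14139, MT:5260-5326, MT:5089-5159, MT:15356-15422 and MT:5192-5257), with the anticodon in capitals, found as the expected 3 bases in the middle of a loop closed by a stem of 5 pairs. None had a 50-base word in another annotated transcript.
mt-Te: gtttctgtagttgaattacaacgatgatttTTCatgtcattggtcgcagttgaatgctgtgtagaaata
mt-Ty: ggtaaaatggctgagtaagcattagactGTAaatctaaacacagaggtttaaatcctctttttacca
mt-Tn: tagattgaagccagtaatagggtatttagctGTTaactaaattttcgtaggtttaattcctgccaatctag
mt-Tp: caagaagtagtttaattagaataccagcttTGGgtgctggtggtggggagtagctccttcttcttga
mt-Tc: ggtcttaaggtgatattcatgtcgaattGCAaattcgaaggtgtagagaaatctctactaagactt

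**Figure D3:**
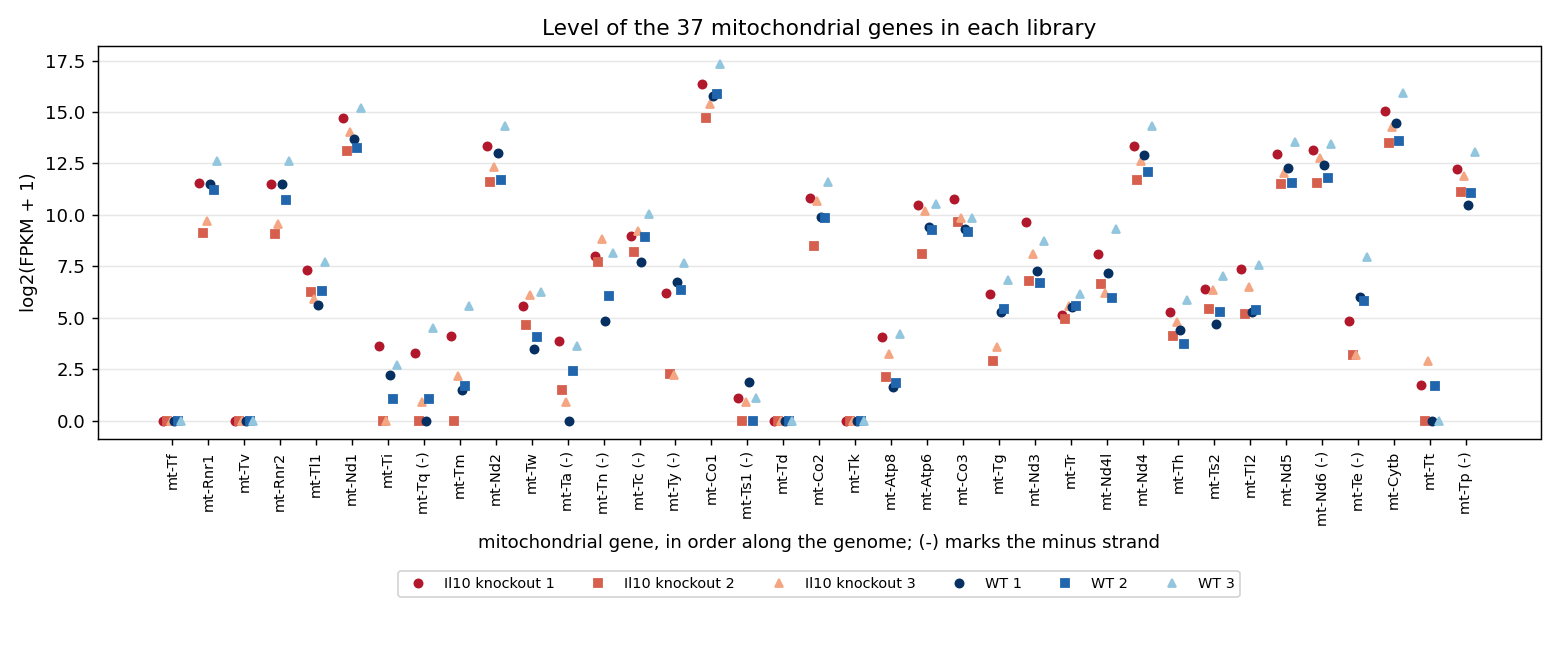
Points give log2(FPKM + 1) of the 37 genes, in their order along the mitochondrial genome, in each library (knockout in reds, left in each column, WT in blues, right). WT library 3 is highest for 26 of the 33 genes with reads, and 4 tRNA genes are at 0 in every library.

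The test across all genes called no member. limma on log2(FPKM + 1), with Benjamini-Hochberg adjustment over the 12668 genes tested, called 23 genes higher in the knockout libraries (0.182%) and 0 lower (0%), and 0 of the 32 members were among them. At an unadjusted p under 0.05 limma gave 0 members higher and 2 lower, where 778 of all genes were higher (6.14%) and 510 lower (4.03%). voom on the recovered reads called 0 members as well, with 1 higher and 2 lower at an unadjusted p under 0.05. In that fit 716 of the 12668 genes were higher and 552 lower at the same threshold. Of the 32 members, 11 had a positive fitted log2 fold change and 21 a negative one.

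The mRNAs had fitted values on both sides of 0. Their median log2 fold change was -0.30, with 3 positive and 10 negative, against a median of 0.04 over all genes tested. The values ran from 0.66 for mt-Co3 (SE 0.45) to -0.85 for mt-Co1 (SE 0.66), and limma gave adjusted p = 0.664 and 0.714 for these. With the reads of Gm28437 added, mt-Co3 was at -0.27. The sign of the mRNA median rests on single libraries: it was 0.24 without WT library 3, with 12 of 13 mRNAs positive, and 0.29 without knockout library 2. It was also positive under quantile normalization, at 0.07. No direction is therefore given for the mRNAs, and the pooled SD within groups, 0.96 on the log2 scale, was larger than the median difference.

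Both rRNAs had lower fitted values than any mRNA, without passing the test. The log2 fold change was -1.65 for mt-Rnr1 (SE 0.73) and -1.56 for mt-Rnr2 (SE 0.79), with limma adjusted p of 0.507 and 0.556. Their median of -1.61 stayed below 0 without WT library 3, at -1.14.

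Among the tRNA genes, mt-Te and mt-Ty were the 2 members at an unadjusted p under 0.05. mt-Te had 27.6, 8.29 and 8.0 FPKM in the knockout libraries and 63.8, 56.0 and 249 FPKM in the WT libraries, from 42 reads in the knockout libraries in all and 344 in the WT libraries. Its groups did not overlap, and the log2 fold change was -2.86 (SE 0.71; limma unadjusted p = 0.00518, adjusted p = 0.278). mt-Ty had 73.3, 3.80 and 3.66 FPKM in the knockout libraries and 106, 81.4 and 203 FPKM in the WT libraries. These came from 62, 4 and 4 reads in the knockout libraries (70 in all) and 363 in all in the WT libraries. Here too the groups did not overlap, with knockout library 1 much nearer to WT than the other knockout libraries, and the log2 fold change was -3.36 (SE 1.08; limma unadjusted p = 0.0177, adjusted p = 0.400). mt-Te passed with weights per library (limma adjusted p = 0.0495). mt-Ty passed without knockout library 1 (limma adjusted p = 0.0447, log2 fold change -4.69), where each remaining knockout library had only 4 reads. Over the alternatives adjusted p ran to 1 for both. mt-Tn had the highest positive value, 1.83 (SE 0.83; limma adjusted p = 0.513), with 257, 206 and 451 FPKM in the knockout libraries and 27.9, 65.1 and 281 FPKM in the WT libraries. WT library 3 was within the knockout range, so the groups overlapped.

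The other 14 tested tRNA genes had log2 fold changes between -1.63 (mt-Tg) and 0.98 (mt-Tt), and the median over all 17 was -0.06. They carry glycine (mt-Tg), arginine (mt-Tr), isoleucine (mt-Ti), methionine (mt-Tm), glutamine (mt-Tq), leucine (mt-Tl1, mt-Tl2), cysteine (mt-Tc), histidine (mt-Th), alanine (mt-Ta), proline (mt-Tp), serine (mt-Ts2), tryptophan (mt-Tw) and threonine (mt-Tt). In all, 2 of the 32 members (6.25%), mt-Te and mt-Ty, had FPKM values that did not overlap between groups, against 2119 of all genes tested (16.7%).

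**Figure D4:**
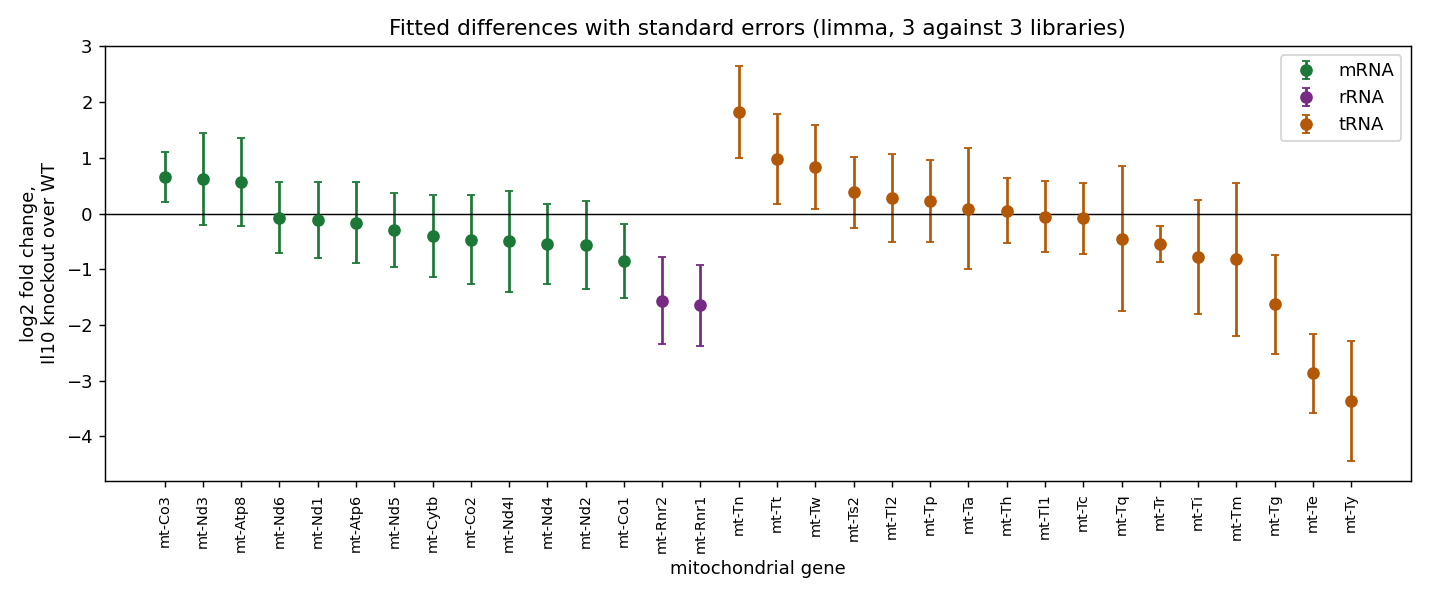
Points give the fitted log2 fold change, knockout over WT libraries, of the 32 members tested, with bars for 1 standard error, ordered within mRNAs, rRNAs and tRNAs. The 13 mRNAs lie between -0.85 and 0.66, both rRNAs near -1.6, and the tRNAs spread from -3.36 to 1.83.

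A ratio within a library does not depend on how libraries were scaled, and 5 such single values were compared, each with an exact two-sided permutation test whose smallest possible p is 0.1 (after Benjamini-Hochberg adjustment over the 5, a p of 0.1 became 0.125 here). The rRNA genes were low relative to mRNA in the knockout libraries. Summed rRNA FPKM over summed mRNA FPKM was 0.0313, 0.0177 and 0.0149 in the knockout libraries and 0.0475, 0.0404 and 0.0369 in the WT libraries. All 3 knockout libraries were below all 3 WT libraries (difference of mean log2 -1.03, exact permutation p = 0.1). Each rRNA alone also lay apart, with differences of -1.07 for mt-Rnr1 and -0.98 for mt-Rnr2. The rRNA genes held only 1.47% to 4.41% of the mitochondrial reads of a library. Whether polyadenylated RNA was selected or rRNA removed is not given, and the part of either in this ratio was not tested.

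tRNA reads were high relative to mRNA reads in the knockout libraries. The ratio was 0.00175, 0.00256 and 0.00267 in the knockout libraries and 0.000874, 0.00153 and 0.00169 in the WT libraries. The groups lay apart by a narrow gap between knockout library 1 and WT library 3 (difference of mean log2 0.80, exact permutation p = 0.1), and without WT library 1 the difference was 0.51. Most of these reads were on mt-Tp, and without it the ratio was 0.000431, 0.000645 and 0.000741 in the knockout libraries and 0.000275, 0.000484 and 0.000412 in the WT libraries, where the groups overlapped (exact permutation p = 0.2).

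mt-Nd6, annotated on the other strand than the 12 remaining mRNAs, was high relative to their mean FPKM in the knockout libraries. Whether the libraries kept the strand is not given, so its reads may in part be plus-strand RNA, which was not tested. The ratio was 0.606, 0.612 and 0.848 in the knockout libraries and 0.567, 0.449 and 0.413 in the WT libraries. The groups lay apart (difference of mean log2 0.53, exact permutation p = 0.1). Against mt-Cytb alone they overlapped, with a difference of 0.32 (exact permutation p = 0.4).

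The mean FPKM of complex I mRNAs was high relative to that of complex IV mRNAs, which is mostly mt-Co1, in the knockout libraries. In knockout library 1, mt-Co2 and mt-Co3 had 1785 and 1776 FPKM against 82857 FPKM for mt-Co1. Mean FPKM of the 6 mt-Nd mRNAs of the plus strand over that of mt-Co1, mt-Co2 and mt-Co3 was 0.326, 0.327 and 0.358 in the knockout libraries and 0.298, 0.166 and 0.268 in the WT libraries. The groups lay apart (difference of mean log2 0.51, exact permutation p = 0.1), and without WT library 2 the difference was 0.25. With medians over genes, in which mt-Co1 does not set the value, the difference was -0.37 and the groups overlapped (exact permutation p = 0.4). The complex IV median is then the level of mt-Co2 or mt-Co3, which is uncertain because of the nuclear copies. The levels of mt-Nd3 and mt-Nd4l are uncertain for the same reason. With the copies' reads added to their genes, the difference from means was 0.51.

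Reads of each member per 100000 mitochondrial mRNA reads of the same library gave the pattern gene by gene. Of the 32 members, 11 (34.4%) had all knockout libraries above all WT libraries and 5 (15.6%) had them all below, against 4.1% and 3.57% of the 12668 genes put over the same denominator. That background is mostly nuclear genes, whose value over this denominator also moves with the mitochondrial share of the library. It does not serve as a like comparison, and each exact permutation p is 0.1. The share of all genes above was 35.3% without knockout library 1, with 14 members above. It was 19.2% without WT library 2, with 11 members, and 13.3% without WT library 1, with 12 members. It was 4.2% to 4.65% with any other library left out. With all libraries, the members above were mt-Nd1, mt-Nd6, mt-Co3, mt-Nd3, mt-Atp8, mt-Tp, mt-Tn, mt-Tw, mt-Th, mt-Ts2 and mt-Tl2. Below were mt-Co1, mt-Rnr1, mt-Rnr2, mt-Ty and mt-Te. The denominator matters for the members above. mt-Co1 itself had 51997 ± 1766 of each 100000 mitochondrial mRNA reads in the knockout libraries and 60564 ± 7492 in the WT libraries (SD, n = 3 each), with 69083 in WT library 2. With mt-Co1 taken out of the denominator, 5 members were above (mt-Co3, mt-Nd3, mt-Tn, mt-Tw and mt-Th) and 6 below, the same 5 and mt-Nd4. Of all genes, 2.53% were above and 4.67% below. Per mt-Cytb read, 6 members were above, namely mt-Co3, mt-Nd3, mt-Tn, mt-Tw, mt-Th and mt-Atp8, and the same 6 were below. The shares of all genes were 2.61% and 4.29%. With the reads of the nuclear copies added to their genes, mt-Co3 overlapped, 10 members were above and 5 below (all genes 4.07% and 3.58%). The levels of mt-Co3 and mt-Nd3 are uncertain because of those copies.

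mt-Te had 0.791, 0.728 and 0.415 reads per 100000 mitochondrial mRNA reads in the knockout libraries and 2.79, 2.85 and 3.86 in the WT libraries. The geometric mean was 5.04-fold lower in the knockout libraries, where it rests on 24, 9 and 9 reads, against 71, 51 and 222 in the WT libraries. mt-Ty had 2.04, 0.323 and 0.185 in the knockout libraries and 4.52, 4.03 and 3.06 in the WT libraries, a 7.70-fold lower geometric mean, with knockout library 1 between the rest and WT. Without knockout library 1 the value was 15.6-fold lower, and without knockout library 3 it was 4.70-fold lower. The 15.6-fold value rests on 4 reads in each of knockout libraries 2 and 3, against 62 in knockout library 1. mt-Tn had 7.58, 18.6 and 24.1 in the knockout libraries and 1.26, 3.41 and 4.48 in the WT libraries, a 5.61-fold higher value. mt-Tn, mt-Tc and mt-Ty are neighbours on the same strand (MT:5089-5326) and lay on different sides: mt-Tc overlapped between the groups, with 13.9, 24.7 and 29.4 in the knockout libraries and 8.76, 23.5 and 15.5 in the WT libraries. mt-Te and mt-Nd6 abut on the minus strand and also lay on opposite sides. mt-Nd1 had 10487, 10700 and 12001 in the knockout libraries and 8118, 6940 and 8004 in the WT libraries, 1.44-fold higher in the knockout libraries. With mt-Co1 out of the denominator and per mt-Cytb read, mt-Nd1 and mt-Nd6 overlapped between the groups, while mt-Te stayed below.

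**Figure D5:**
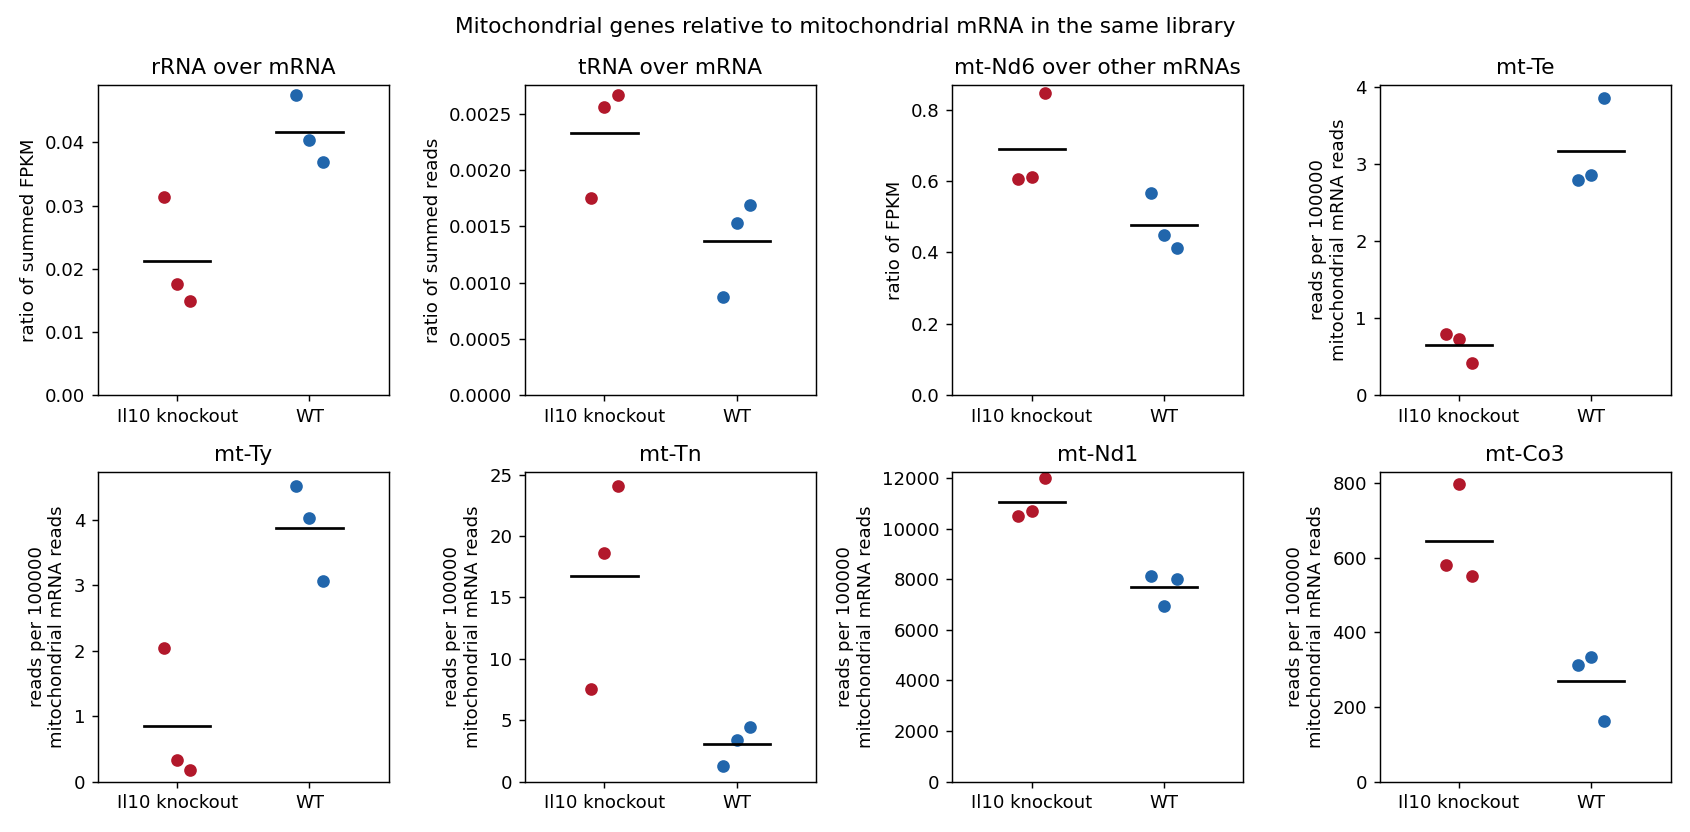
Points are libraries (knockout left, WT right in each panel) and lines their means, for ratios of member classes and for reads per 100000 mitochondrial mRNA reads of 5 members. The 5 members shown were picked from those whose groups lay apart, while 16 of the 32 members overlapped. As plotted, the groups lie apart in every panel, with mt-Te and mt-Ty low and mt-Tn, mt-Nd1 and mt-Co3 high in the knockout libraries. The gap is narrow for the tRNA ratio. Groups overlapped for mt-Co3 with its copy's reads added, for mt-Nd1 with mt-Co1 out of the denominator, and for mt-Nd6 against mt-Cytb alone.

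Nuclear genes of mitochondrial function were read from the same fit, and limma called none of them at an adjusted p of 0.05. Of the 76 respiratory chain and ATP synthase subunits, 72 had a positive log2 fold change and 4 a negative one, with a median of 0.33. This leaning rested on WT library 3, without which 46 were positive and 30 negative and the median was 0.06; it was 0.19 without knockout library 1 and 0.67 without WT library 2. At an unadjusted p under 0.05, limma gave 1 higher and 1 lower. These were Ndufb1-ps (log2 fold change 0.77, SE 0.30, limma adjusted p = 0.469) and Ndufb2 (-0.73, SE 0.23, limma adjusted p = 0.372), both complex I genes. Of the 77 measured mitochondrial ribosomal protein genes, 60 were positive and 17 negative (median 0.14), and without WT library 3 there were 48 and 29 (median 0.03). Without WT library 2 the median was 0.25. The gene of smallest p was Mrpl54, with 83.7, 75.3 and 90.6 FPKM in the knockout libraries and 41.5, 61.5 and 47.6 FPKM in the WT libraries. Its groups did not overlap, but it did not pass the test (log2 fold change 0.73, SE 0.29, limma adjusted p = 0.468).

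Genes of the machinery that transcribes the mitochondrial genome had fitted differences near 0. Of 18 measured genes of mitochondrial DNA transcription and replication, 7 were positive and 11 negative, with a median of -0.04 that was 0.01 without WT library 3, 0.03 without WT library 1 and between -0.21 and -0.03 without any other library. Polrmt, the RNA polymerase, had 4.08, 3.98 and 4.94 FPKM in the knockout libraries and 5.96, 3.09 and 5.22 FPKM in the WT libraries (log2 fold change -0.08, SE 0.26, limma adjusted p = 0.944). Tfam, which packages mitochondrial DNA and starts its transcription, had 7.28, 6.99 and 6.26 FPKM in the knockout libraries and 7.02, 7.44 and 6.99 FPKM in the WT libraries (log2 fold change -0.06, SE 0.19, limma adjusted p = 0.945). Both overlapped between the groups. Ppargc1a, a coactivator of mitochondrial biogenesis, had 2.07, 1.18 and 0.921 FPKM in the knockout libraries and 2.99, 1.54 and 1.70 FPKM in the WT libraries (log2 fold change -0.36, SE 0.29, limma adjusted p = 0.727). The 9 measured biogenesis regulators had a median of -0.10 (-0.14 to -0.03 with 1 library left out), with 2 positive. The gene of smallest p among them was Esrra, a nuclear receptor that drives mitochondrial genes, with 83.9, 74.4 and 57.1 FPKM in the knockout libraries and 34.6, 83.7 and 30.2 FPKM in the WT libraries. The groups overlapped (log2 fold change 0.66, SE 0.44, limma adjusted p = 0.660). The 30 measured genes of mitochondrial RNA processing and decay had a median of -0.07 (-0.13 to -0.03 with 1 library left out), with 10 positive. The gene of smallest p was 1110008L16Rik, also called Prorp, which encodes the nuclease of mitochondrial RNase P. It had 1.89, 2.54 and 3.57 FPKM in the knockout libraries and 1.89, 1.21 and 1.03 FPKM in the WT libraries, and the log2 fold change of 0.62 (SE 0.27) did not pass the limma test (adjusted p = 0.506). Next by p came Pnpt1, on the other side. Pnpt1, which encodes the mitochondrial polynucleotide phosphorylase, had 7.95, 8.50 and 9.44 FPKM in the knockout libraries and 14.6, 11.8 and 10.5 FPKM in the WT libraries. Its groups did not overlap, and the log2 fold change of -0.46 (SE 0.22) did not pass the limma test (adjusted p = 0.542).

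Markers of other cell types stand beside these values, and their part in them was not tested. limma called none of the markers. All 10 smooth muscle genes had a negative log2 fold change, with a median of -2.13, which was -1.28 without WT library 3 and -1.38 without knockout library 2. Of 11 measured genes of enteric neurons and glia, 10 were negative, with a median of -1.59, or -0.94 without WT library 3. Of the epithelial genes 8 of 10 were positive, with a median of 0.84 that was 0.28 without WT library 3 and 1.50 without WT library 2. All 8 leukocyte genes were positive, with a median of 0.65; without WT library 3 it was 0.43 and 7 were positive, and without WT library 1 it was 1.21. The groups overlapped in the sums of both lists that follow. Summed leukocyte markers ran from 245 to 454 FPKM in the knockout libraries and from 91.6 to 333 FPKM in the WT libraries. Summed epithelial markers ran from 8526 to 17595 FPKM in the knockout libraries and from 2357 to 43549 FPKM in the WT libraries.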

How the data were processed

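Colon RNA was sequenced in 3 libraries per label, grouped by sample title. The authors deposited 1 table of FPKM values, which also lists each gene's position, length and biotype per its header. Bowtie 0.12.2 and the builds hg38 and mm8 appear in the submitters' processing notes, with no role for either build. No source used here names the counting tool, or says how strand and reads with several matches were handled. All 37 members had identical coordinates in GENCODE M21, so mitochondrial positions are given as GRCm38. Positions on chromosome 1 are those the authors list and were not checked in this way.

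FPKM times gene length, divided by the worth of 1 read in that library, was whole for 100% of values (tolerance 0.01). The library size this implies was 0.836 to 1.23 times the recovered total and followed median-of-ratios size factors; no source states this scaling. No 2 libraries were repeats (chi-square per gene of at least 60.7). log2(FPKM + 1) was tested for genes whose mean FPKM reached 1, with limma 3.58.1 (eBayes with the mean trend) in R 4.3.3, after a check on simulated data, with no replicate block, adjustment over all genes and a threshold of 0.05. Single values per library were compared by exact permutation with scipy 1.17.1; the other software was Python 3.11.15 with pandas 2.3.3, numpy 2.4.6 and, for figures, matplotlib 3.10.9. Words of 50 bases were looked up in the GENCODE M21 transcripts. Counting error is small for most mRNAs and large for most tRNA genes and for mt-Atp8, which had 7 to 47 reads per library.

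Every member is accounted for: mRNAs and rRNAs with each library's value, tRNAs by name or range, and nuclear lists by counts, with Polrmt, Tfam and Ppargc1a and, for the lists of mitochondrial function other than transcription and replication, the 1 or 2 genes of smallest p. mt-Te, mt-Ty, mt-Tn, mt-Nd1 and the copies were singled out after their values were seen. Members and lists were chosen with earlier results of these data known. Alternatives covered pseudocounts, filters, scalings, eBayes options, weights per library, voom, a replicate block, other ratio definitions and leaving out each library. Adding the copies' reads and changing the denominator of the reads per mRNA read, and leaving libraries out of the list medians and of these reads, were chosen after seeing the data.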

Additional observations from a re-analysis of the deposited data

How the results depend on the processing

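Over 22 settings, 702 gene values of the 32 tested members were recomputed: 649 kept direction and side of the threshold, 51 reversed and 2 came to pass it. In 12 genes no setting reversed the sign. No member was called higher under any setting, and 1 was called lower with weights per library (mt-Te, -2.75) and 1 without knockout library 1 (mt-Ty), so the number called lower ranged from 0 to 1 when libraries were left out. Weights per library called 237 genes higher and 94 lower over the table, against 23 and 0; TPM called 44 and 2, leaving out libraries called 4 to 27 higher and 0 to 3 lower, voom 2 higher, no filter 4 higher and a pseudocount of 0.01 9 higher. TPM and a mean FPKM of at least 5 moved the median of all genes to 0.15 and 0.13.

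Leaving out each library gave ranges that cross 0 for mt-Cytb (-0.93 to 0.24), mt-Nd1 (-0.51 to 0.45), mt-Nd2 (-1.22 to 0.090), mt-Nd3 (-0.11 to 1.31), mt-Nd4 (-1.06 to 0.065), mt-Nd4l (-1.25 to 0.41), mt-Nd5 (-0.75 to 0.24), mt-Nd6 (-0.45 to 0.40), mt-Co2 (-0.88 to 0.29) and mt-Atp6 (-0.61 to 0.59). It did so too for mt-Tp (-0.30 to 0.99), mt-Tl2 (-0.23 to 1.01), mt-Th (-0.41 to 0.64), mt-Ta (-0.92 to 0.89), mt-Tc (-0.67 to 0.48), mt-Tl1 (-0.53 to 0.53), mt-Tm (-1.82 to 0.51), mt-Tq (-1.40 to 0.88) and mt-Ts2 (-0.11 to 1.05). Quantile normalization reversed mt-Cytb (0.28), mt-Nd1 (0.48), mt-Nd2 (0.065), mt-Nd5 (0.031), mt-Nd6 (0.45) and mt-Th (-0.21), and set mt-Co1, the highest gene of every library, to 0. TPM reversed mt-Nd6 (0.032), mt-Tc (0.022) and mt-Tl1 (0.051), scaling by reads outside the mitochondrial genome mt-Th (-0.094), and weights per library mt-Tc (0.55), mt-Tl1 (0.42), mt-Th (-0.041) and mt-Tq (0.24). The copies' reads reversed mt-Co3 (-0.27). The cause was not tested for any of these.

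The complex I to complex IV ratio reversed with medians over genes (-0.37). Members above WT per mitochondrial mRNA read fell to 5 without mt-Co1 in the denominator (all genes 2.53%) and 6 per mt-Cytb read (all genes 2.61%). With 1 library left out, 11 to 14 members were above, and the share of all genes above ranged from 4.2% to 35.3%.

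The labels number replicates 1 to 3 in both groups, and whether the numbers pair the libraries could not be settled. Deviations of same-numbered libraries correlated at -0.15, 0.18 and 0.40. Knockout library 1 correlated best with WT library 2 (0.18), and knockout libraries 2 and 3 with their own numbers. With 3 libraries in each group such correlations cannot decide this. With the replicate block limma called 7 genes higher in the table and 0 members, with 1 member higher and 2 lower at an unadjusted p under 0.05. At that threshold 818 of the 12668 genes were higher and 647 lower.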
